A study of Mus musculus with 9 samples.

Results

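The intestinal epithelium meets foreign compounds (xenobiotics) from food and drugs, and carries enzymes that make them easier to excrete. This report gives the transcript levels of 106 genes of such enzyme families in mouse intestinal organoids and tumoroids, of which 102 are annotated as protein coding and 4 as pseudogenes (Ces2d-ps, Cyp2c53-ps, Cyp2d37-ps and Cyp4f41-ps). The genes were chosen by symbol alone: cytochrome P450 monooxygenases of families 1 to 4 (CYP), carboxylesterases (CES), cytosolic and microsomal glutathione S-transferases (GST and MGST), UDP-glucuronosyltransferases of families 1 and 2 (UGT) and sulfotransferases (SULT). Of 191 genes with a matching symbol among 50600 in the count table, 106 reached 1 TPM (transcripts scaled for gene length and to the same library total) in at least 1 of the 9 libraries, and 85 did not, 46 of which had no count at all. The 106 were 49 of 100 matching CYP, 21 of 22 GST, 3 of 3 MGST, 12 of 19 UGT, 7 of 27 SULT and 14 of 20 CES genes, and they stood among 16208 genes that reached the same level.

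Cytochrome P450s oxidise their substrates with electrons handed on by the reductase Por, and carboxylesterases cut ester and amide bonds; both steps expose a reactive group. Transferases then attach glutathione, glucuronic acid or sulfate, which makes the product more soluble and a substrate for export pumps. In the small intestine these genes are best known from the absorptive enterocytes of the villus, and several are induced through ligand-activated receptors such as the aryl hydrocarbon receptor (Ahr), the pregnane X receptor (Nr1i2) and the constitutive androstane receptor (Nr1i3).

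The study asked how wildtype intestinal epithelium responds to what tumour cells secrete. Wildtype small-intestinal organoids, labelled C57BL/6 although the methods speak of mixed-background mice, spent 24 hr in conditioned medium (cM) from wildtype organoids or from tumoroids, mixed with fresh medium holding EGF, Noggin and R-spondin1. The 6 libraries formed a WT-cM-titled and a T-cM-titled group of 3 replicates each. The tumoroids (3 libraries, labelled as mixed strain and untreated) came from Apc1638N/+ mice, which develop intestinal tumours after loss of the remaining Apc allele; by the methods they were grown without R-spondin1, while the labels give all libraries a protocol with it. Tumoroid donors were also older than organoid donors, so genotype, transformation, strain, age and medium cannot be told apart in any comparison of tumoroids with organoids.

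The titles and the treatment field of all 6 organoid libraries name opposite media. The groups here follow the titles, and every sign between the organoid groups turns round under the treatment field. Library totals ran from 16541635 to 25170966 counts. Markers of intestinal epithelium summed to 7056 to 9887 TPM in organoids and 6544 to 7618 in tumoroids, mostly from Krt8; of the 6, Vil1 and Cdx1 fell in tumoroids. The 6 fibroblast markers summed to at most 1.5 TPM and the 3 endothelial markers to at most 1.68 TPM in any library. Of the 4 immune markers Ptprc, Cd3e and Cd79a stayed under 1 TPM in all 9 libraries, whereas Cd68 had 0.65 to 1.77 TPM in organoids and 11.9, 16.6 and 58.3 TPM in tumoroids. In the libraries, Xist was present (32.9 to 225.8 TPM) with Ddx3y at or below 0.21 TPM in replicate 3 of both organoid groups and in tumoroids 1 and 2, and the other 5 libraries had 27.7 to 33.7 TPM of the Y-linked Ddx3y and at most 0.02 of Xist, so donor sex differed within each group. In bulk RNA, fewer cells of a type and less RNA per cell cannot be told apart.

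The 106 genes held 4.02% to 5.27% of all TPM in the organoid libraries and 0.611% to 0.688% in the tumoroids. Glutathione S-transferases made up 51.7% of that amount in organoids and CYP genes 23.7%. Summed CYP levels were 9336, 11931 and 9895 TPM in WT-cM-titled replicates 1, 2 and 3, 10065, 13297 and 11304 in T-cM-titled replicates, and 663, 2687 and 654 in tumoroids. Summed GST levels were 25604, 23621 and 19145, then 26565, 27768 and 20763, and 3777, 2886 and 4145 TPM in the same order. Each of the 6 families had every tumoroid below every organoid library. The mean organoid sum exceeded the mean tumoroid sum 8.22 times for CYP, 6.64 for GST, 6.56 for MGST, 8.16 for UGT, 6.89 for SULT and 8.19 for CES. Without tumoroid 2 the CYP ratio was 16.6, and the others lay between 5.74 and 8.59. Between the organoid groups, the CYP, GST, MGST and UGT sums were higher in the T-cM-titled library of each replicate number, and the CES sum was lower in each (3983, 4595 and 4395 TPM in WT-cM-titled against 3830.3, 3373 and 3344 in T-cM-titled replicates).

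**Figure D1:**
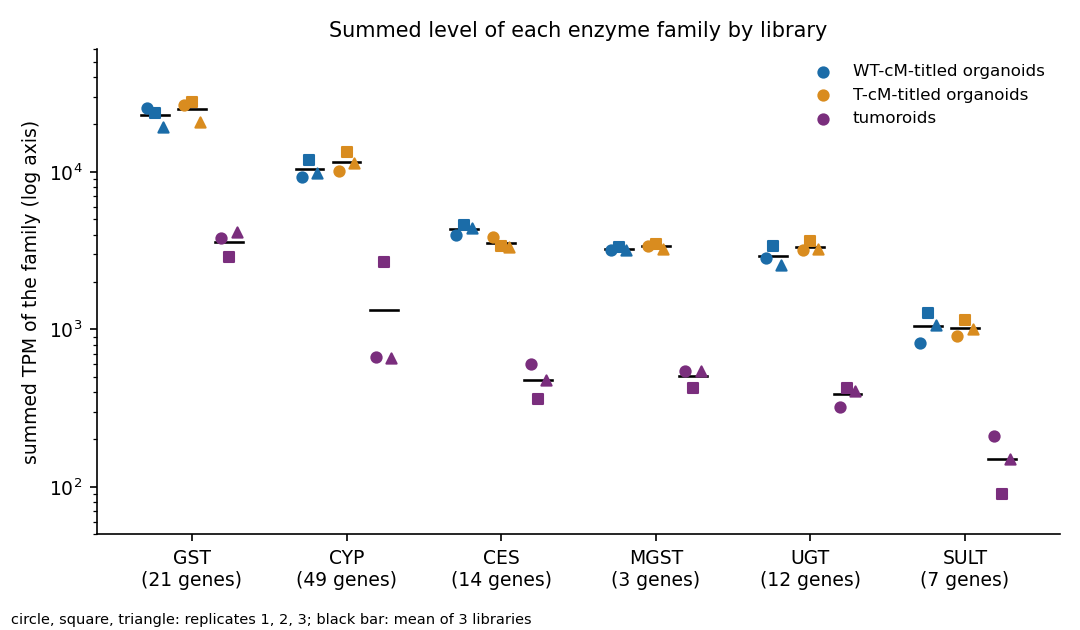
Summed TPM of each enzyme family (log axis) in the 9 libraries, with 1 point a library, shaped by replicate number, and a bar at the mean of each group of 3. In every family the 3 tumoroids sit below the 6 organoid libraries, and the 2 organoid groups overlap except for CES.

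A few genes carried most of the transcript. The 5 most abundant in organoids, Gstm1, Gstm3, Gsta1, Gsta4 and Mgst3, held 46.6% of the members' TPM. The order of levels differed in tumoroids, where Gstp1, Gsto1, Gsta4, Gstm1 and Cyp2c55 led with 43.7%. Within the CYP families, Cyp2b10 and Cyp2c66 led in organoids, and among esterases Ces2c and Ces2e did. The leading pair overlapped: Gstm1 spanned 4404–8449 TPM over the organoid libraries, and Gstm3 4086–8343 TPM.

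Genes for these enzymes lie close together. Of the 106, 85 fell into 16 clusters with neighbours under 1000000 bases apart, on mm10 positions. The largest clusters held 11 Cyp2c genes (chr19:39007019-40187333), 9 Ugt2 and Sult1 genes (chr5:86889767-87569027), 8 Cyp4f genes (chr17:32452723-32965718), 8 Ces2 and Ces3 genes (chr8:104734003-105058413) and 7 Gstm genes (chr3:107895821-108044894). Near-copies can trade reads: more than 50% of the transcript windows of 8 members occur in another gene, among them Gsta1 (80.6%) and the Ugt1a genes, which share their last exons, whereas 54 members share no window at all.

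Tumoroids were compared with the mean of both organoid groups to ask how far the tumour epithelium differs from its normal counterpart. Of the 106 genes, 69 fell and 12 rose at an adjusted p under 0.05 with an at least 2-fold change (edgeR's quasi-likelihood test, Benjamini-Hochberg over 16208 genes, n = 3 tumoroids and 6 organoid libraries). Over all genes tested 33.1% passed, 12.1% lower and 21% higher. By adjusted p alone, 71 fell and 13 rose, against 50.4% of all genes, 20.8% lower and 29.6% higher. The median log2 fold change was -2.88 over the members and 0.16 over all genes. In 66 members every tumoroid had a lower TPM than every organoid library (10.9% of all genes), and in 14 a higher one (43.1% of all genes). Because members that reach 1 TPM in tumoroids alone had to differ, the split matters: 79 reached it in both tissues, 14 in organoids alone and 13 in tumoroids alone. Of the 79, 56 fell and 3 rose, Cyp2d9, Cyp2w1 and Cyp4f17; of the 12855 genes that reached 1 TPM in both tissues, 12.2% fell and 13.6% rose. The other 9 members that rose, among them Cyp1b1, Gsto2 and Sult1a1, entered the set through the tumoroids alone, so their direction was fixed by that limit and their levels are a description. The same holds for the 13 of the 14 members at 1 TPM in organoids alone that were called lower, among them Ugt2b5, Ugt1a9 and Cyp2c38.

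Other values moved with these differences. The 7 enterocyte markers, all lower in tumoroids, summed to 28613 to 63216 TPM in WT-cM-titled organoids, 29924 to 42559 in T-cM-titled organoids and 91.5 to 529.5 in tumoroids. Both enteroendocrine markers were tested: Chga fell (-1.07) and Chgb did not pass (-0.03), and they summed to 200.2 to 420.9 TPM in organoids and 775.7, 98.6 and 182.4 in tumoroids. Of 4 crypt stem-cell markers Lgr5, Ascl2 and Smoc2 rose in tumoroids (6.47, 3.39 and 1.83 on the log2 scale) and Olfm4, which carried the highest organoid sum, did not pass (-2.59). All 3 goblet markers fell (summed 2731 to 3347 TPM in organoids, 338.2 to 1659 in tumoroids), as did 2 of 3 Paneth markers, while the Paneth marker Mmp7 rose (summed 12773 to 15846 and 670.1 to 5578 TPM). Of 5 gastric markers Muc5ac and Tff2 rose and Cldn18 fell (summed 0.41 to 2.38 TPM in organoids, 2.22 to 13.2 in tumoroids). Of 5 hepatocyte markers, which include the member Cyp2e1, none rose and Apoh fell (summed 15.2 to 32.2 and 49.6 to 79.5 TPM; Serpina1a under 1 TPM throughout). Of 4 immune markers Cd68 alone rose (3.99) and carried the sum (0.78 to 2.07 and 11.9 to 58.3 TPM). Of 3 endothelial markers Cdh5 rose, from 0 TPM in organoids to 0.04, 0.03 and 1.58 TPM. Among these markers Lgr5, Muc5ac, Cdh5 and the gastric marker Gkn1, which did not pass, reached 1 TPM in tumoroids alone and Cldn18 in organoids alone. Their part in the enzyme differences was not tested. Set against each organoid group alone, which share the same tumoroids, 69 members fell and 9 rose against the WT-cM-titled group (29.8% of genes passed, 11.6% lower and 18.2% higher) and 67 fell and 11 rose against the T-cM-titled group (31.2%, 11.8% lower and 19.4% higher).

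**Figure D2:**
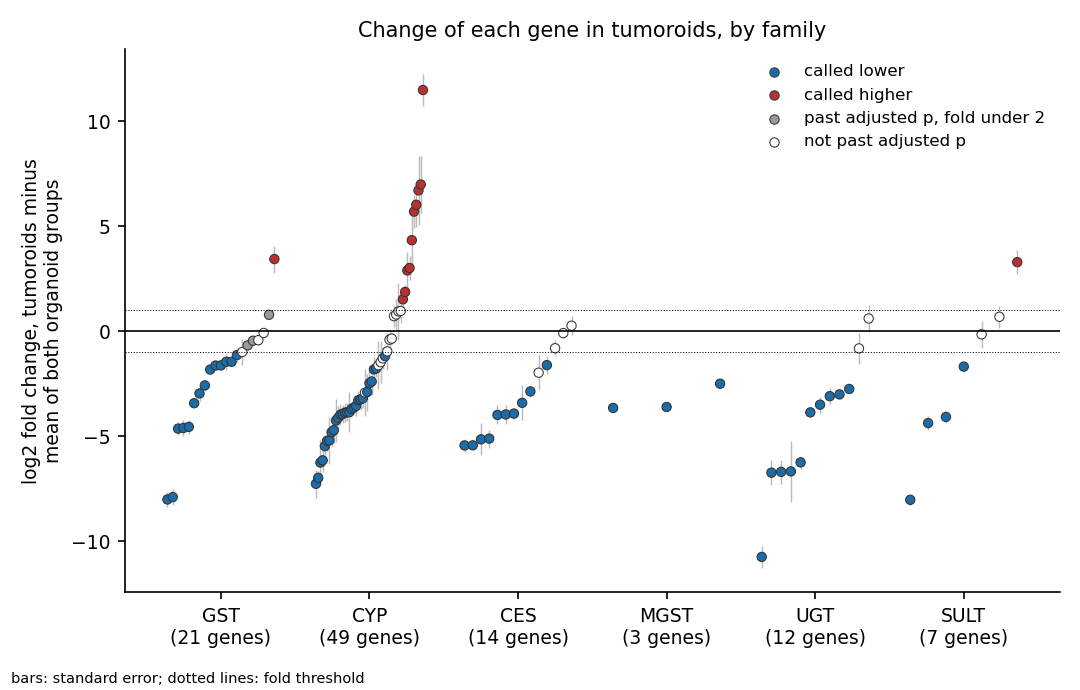
Log2 fold change (tumoroids minus mean of organoids, edgeR, bars for SE) of each of the 106 members, ordered within its family, with blue and red points for members past an adjusted p of 0.05 and 2-fold, grey past the former alone and white past neither. Most points of each family lie below 0, and the red points are 10 CYP, 1 GST and 1 SULT genes.

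Among the oxidising enzymes, 28 of 49 CYP genes fell in tumoroids (57.1%, against 12.1% of all genes) and 10 rose (20.4%, against 21% of all genes; median log2 fold change -2.47), 7 of the 10 having reached 1 TPM in tumoroids alone. Of the 32 CYP genes at 1 TPM in both tissues 20 fell (62.5%, against 12.2% of such genes) and 3 rose (9.38%, against 13.6%). Cyp3a11 (chr5:145854426-145879964, minus strand), a major drug-oxidising P450 of mouse intestine and liver and a pregnane X receptor target, stood at 153, 198 and 174 TPM in WT-cM-titled organoids, 142, 195 and 183 in T-cM-titled organoids and 1.89, 2.81 and 1.3 in tumoroids. No tumoroid came near an organoid library, and the log2 fold change was -6.98 ± 0.33 (± SE, as for every log2 fold change here; adjusted p = 9.89e-07). Its neighbour Cyp3a25 went from 55.3–119.7 TPM over organoids to 0.43, 4 and 1.06 in tumoroids (-6.15 ± 0.56), and Cyp3a13 from 536–925 to 27.7, 127 and 30.7 (-4.11 ± 0.55). Cyp4f14, an omega-hydroxylase of leukotrienes and fatty acids, was among the 12 most abundant members of organoids (718–1519.8 TPM) and stood at 19.2, 42.5 and 47.8 TPM in tumoroids (-5.47 ± 0.44). Without tumoroid 2, Cyp3a25 came to -7.34 and Cyp3a13 to -5.13.

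Of the 11 genes in the Cyp2c cluster 8 fell and none rose (over all genes 12.1% fell and 21% rose). For 3 of the 8, Cyp2c38, Cyp2c53-ps and Cyp2c70, which reached 1 TPM in organoids alone, the direction was fixed by that limit. Cyp2c29 was at 699.9, 588 and 341, then 751, 931 and 575 TPM in the organoid groups and at 1.31, 33.7 and 2.61 in tumoroids (-6.25 ± 1.07, adjusted p = 0.000923). Cyp2c38 had 20.9–35 TPM in organoids and 0.1, 0.63 and 0 TPM in tumoroids (-7.27 ± 0.68), a direction fixed by the 1 TPM limit. Cyp2c65 and Cyp2c66, which oxidise arachidonic acid and are typical of the gut, went from 1009–1473 and 1057–2044 TPM to 47.4–196 and 9.86–324 TPM. Cyp2c55 did not pass: it had 425–802 TPM in organoids and 37.9, 932 and 16.9 TPM in tumoroids (-1.47 ± 1.00, adjusted p = 0.253). Tumoroid 2 lay above all 6 organoid libraries and the other tumoroids far below them, and without tumoroid 2 its log2 fold change was -4.93 (adjusted p = 2.73e-05). Cyp2b10, the classical target of the constitutive androstane receptor and the most abundant P450 of organoids, had 1891, 1856 and 1229 TPM, 1997, 2606 and 1879 TPM and, in tumoroids, 32.8, 233 and 35.6 TPM (-4.81 ± 0.70). Without tumoroid 2 the log2 fold changes were -8.83 for Cyp2c29, -9.39 for Cyp2c38, -6.97 for Cyp2c66 and -6.28 for Cyp2b10.

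The 5′ ends of these genes were read beside their levels. RefSeq windows from 250 bases before to 50 bases after the annotated start (GRCm38.p6) could be matched to 87 of the 106 members. Motifs were searched on both strands as letters: CAAAGTCCA for hepatocyte nuclear factor 4, TATAAA for a TATA box, TNGCGTG for the Ah receptor, TGACNNNGC for the antioxidant element and TTTATGG for Cdx2. CAAAGTCCA was present in 9 member windows (10.34%) and in 0.555% of the windows of 27025 genes. The 9 were those of Cyp2c65, Cyp2c67, Cyp2c68, Cyp2c69, Cyp2c70, Cyp3a11, Cyp3a16, Cyp3a41a and Sult1b1, of which 8 are members of the Cyp2c or Cyp3a subfamilies. Of these genes 6 were called lower in tumoroids (Cyp2c70 at 1 TPM in organoids alone), Cyp3a16 and Cyp3a41a higher (both at 1 TPM in tumoroids alone), and Cyp2c69 did not pass. TATAAA was present in 28.74% of member windows against 15.67% of all, TNGCGTG in 3.448% against 5.839%, TGACNNNGC in 10.34% against 13.99% and TTTATGG in 3.448% against 3.208%. The windows of 4 genes are shown from 5′ to 3′ on the gene's strand, with matches to these motifs in capitals; no match overlaps another. The first pair are neighbours in the Cyp2c cluster, 1 with and 1 without CAAAGTCCA, and both fell in tumoroids. Cyp2c69 had the largest difference between the organoid groups, and Cyp3a11 one of the largest falls in tumoroids. A match is a description of letters and no evidence of binding.
Cyp2c65 (chr19:39060756-39061055, + strand): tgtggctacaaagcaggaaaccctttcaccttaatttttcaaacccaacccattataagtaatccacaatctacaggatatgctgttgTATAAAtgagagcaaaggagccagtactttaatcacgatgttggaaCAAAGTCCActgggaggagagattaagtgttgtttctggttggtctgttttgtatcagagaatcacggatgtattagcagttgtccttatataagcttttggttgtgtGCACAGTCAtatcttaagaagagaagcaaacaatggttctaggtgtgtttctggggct
Cyp2c66 (chr19:39113648-39113947, + strand): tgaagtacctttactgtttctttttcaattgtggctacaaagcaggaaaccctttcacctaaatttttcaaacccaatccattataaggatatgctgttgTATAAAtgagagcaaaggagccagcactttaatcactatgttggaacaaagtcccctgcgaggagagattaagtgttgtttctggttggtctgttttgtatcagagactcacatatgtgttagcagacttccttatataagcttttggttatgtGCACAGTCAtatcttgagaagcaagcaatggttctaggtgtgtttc
Cyp2c69 (chr19:39886720-39887019, - strand): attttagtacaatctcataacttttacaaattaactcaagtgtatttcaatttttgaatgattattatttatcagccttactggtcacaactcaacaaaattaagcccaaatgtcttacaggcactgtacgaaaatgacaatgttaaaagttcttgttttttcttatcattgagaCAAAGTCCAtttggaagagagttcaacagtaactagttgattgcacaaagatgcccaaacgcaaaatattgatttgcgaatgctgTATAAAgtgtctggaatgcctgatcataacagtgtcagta
Cyp3a11 (chr5:145879805-145880104, - strand): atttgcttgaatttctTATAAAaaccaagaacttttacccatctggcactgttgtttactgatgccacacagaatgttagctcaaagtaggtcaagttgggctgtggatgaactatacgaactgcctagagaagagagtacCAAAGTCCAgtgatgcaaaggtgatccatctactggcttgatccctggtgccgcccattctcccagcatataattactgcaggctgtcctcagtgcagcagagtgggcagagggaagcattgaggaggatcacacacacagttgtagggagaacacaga

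The P450s higher in tumoroids were of lower abundance. Cyp1b1 (chr17:79701537-79715061), an Ah receptor target that oxidises polycyclic hydrocarbons and oestrogens, was listed at 0 TPM in 5 organoid libraries and 0.05 in T-cM-titled replicate 1, against 14.7, 62.9 and 23.1 TPM in tumoroids. In counts this was 2 over all organoid libraries and 3792 over the tumoroids, a depth-scaled ratio of 3470 with an exact 95% counting interval of 960 to 2.867e+04. That interval pools the reads of each tissue and leaves out the spread between libraries. The fitted log2 fold change, which at so few reads depends on the prior count, was 11.5, 12.96 without T-cM-titled replicate 1 and 10.7 without tumoroid 2. Cyp2w1, known from fetal gut and colon tumours, had 10.5, 8.84 and 11.6 TPM, 10.9, 5.17 and 6.11 TPM and 70, 224 and 18.3 TPM, with every tumoroid above every organoid library (3.02 ± 0.56, adjusted p = 0.00156; 1.88 without tumoroid 2). Cyp4f17 went from 1.21–2.62 TPM to 7.36, 11.1 and 11.3 TPM (1.88 ± 0.33). Cyp2d9 stayed at or below 1.53 TPM in organoids and reached 1.62, 6.89 and 8.49 in tumoroids (2.90 ± 0.89); its adjusted p of 0.0217 rose above 0.05 without T-cM-titled replicate 2 and without tumoroid 3, and its value came to 3.88 without WT-cM-titled and 3.60 without T-cM-titled replicate 3, the 2 organoid libraries with Xist. Cyp2f2, Cyp3a16, Cyp3a41a, Cyp3a57 and Cyp4a12a rested on 1 to 5 counts over the 6 organoid libraries and 19 to 128 over the tumoroids, and are named because they complete the count, after their values were seen. The last of the 10, Cyp4f39, also outside the naming rule, went from 0.26–0.72 TPM to 1.21, 0.95 and 3.15 TPM.

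Cyp1a1, the textbook Ah receptor target, did not follow Cyp1b1. Its levels were 9.06, 11.8 and 5.41 TPM in WT-cM-titled organoids, 9.92, 22.5 and 14 in T-cM-titled organoids and 0.69, 16.4 and 0 in tumoroids. Tumoroids 1 and 3 lay below every organoid library and tumoroid 2 within their range, and the test did not pass (-1.62 ± 1.14, adjusted p = 0.265). Without tumoroid 2 it did, at -5.59 (adjusted p = 0.00117).

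Of the carboxylesterases, 10 of 14, the pseudogene Ces2d-ps among them, fell in tumoroids (71.4%, against 12.1% of all genes) and none rose (against 21%; median log2 fold change -3.66). Of the 12 at 1 TPM in both tissues 8 fell (66.7%, against 12.2% of such genes). Ces2c, an intestinal esterase that opens drug and lipid esters, had 1027, 1599.7 and 1450.0 TPM, 1010.2, 963 and 875 TPM and, in tumoroids, 49.8, 32.4 and 30 TPM (-5.44 ± 0.32, adjusted p = 2.61e-06). Ces2a went from 569–1076 TPM to 202, 140.5 and 141 TPM (-2.86 ± 0.26), and Ces1d, a triacylglycerol hydrolase, from 113–250.1 to 9.71, 8.73 and 26.2 (-3.98 ± 0.45; -4.67 without tumoroid 3). Ces2g was an exception, at 64.4–140.1 TPM in organoids and 169, 86.6 and 167 TPM in tumoroids with overlapping ranges (-0.09 ± 0.25, adjusted p = 0.802).

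Of the 21 glutathione S-transferases 14 fell (66.7%, against 12.1% of all genes) and 1 rose (4.76%, against 21%; median -1.62), and all 3 microsomal enzymes fell (median -3.61). The 14 and the 3 reached 1 TPM in both tissues. Gstm3 had 8343, 6306 and 4086 TPM in WT-cM-titled and 8163, 7636 and 4318 TPM in T-cM-titled organoids and 38.5, 32.3 and 44.6 TPM in tumoroids (-7.90 ± 0.39, adjusted p = 1.11e-06). Gsta1 (chr9:78230656-78242684), an alpha-class enzyme, had 3699.8, 4693 and 4244 TPM, 3937, 4302 and 3544 TPM and 17.1, 17.6 and 33.4 TPM (-8.01 ± 0.35, adjusted p = 9.46e-07). In both, all 3 tumoroids lay far below the lowest organoid library. Gstm1 fell less, from 4404–8449 TPM to 391, 242 and 469 TPM (-4.64 ± 0.31), and Gsta4, which clears 4-hydroxynonenal, less again, to 535, 399.8 and 801 TPM (-2.58 ± 0.24). Mgst3, a microsomal enzyme of leukotriene and peroxide metabolism, went from 2012–2285 TPM to 267, 217 and 236 TPM (-3.65 ± 0.18).

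Other transferases of this class kept their level closer to that of organoids. Gstp1, an abundant pi-class enzyme, had 1511–1820.0 TPM in organoids and 876, 674 and 767 TPM in tumoroids (-1.62 ± 0.16). Its mean TPM was the highest of the members there, nearly level with that of Gsto1. Gsto1 and Gsta4 stood above Gstp1 in tumoroid 3, and Cyp2c55 did in tumoroid 2. Gsto1, an omega-class thiol transferase, ranged over 712–1079 TPM and 706, 589 and 1020.0 TPM, which overlap (-0.67 ± 0.22, adjusted p = 0.0293, under the 2-fold limit). Only 10 of 18 alternative fits kept it past adjusted p, with log2 fold changes from -0.92 to -0.17 over the 18. Gsta3 and Gstp2 did not pass (-0.08 and -0.42). Gstm5 rose without reaching 2-fold (59.8–72.6 TPM against 166, 97 and 219.7, 0.79 ± 0.22), and Gsto2, which reached 1 TPM in tumoroids alone, was the member past it, with at most 0.43 TPM in organoids and 2.1, 2.95 and 8.17 TPM in tumoroids (3.44 ± 0.64; 2.64 without tumoroid 3). Gsta3, Gstp2 and Gstm5 lie outside the naming rule and are given after their values were seen. TPM and fitted changes differ here. The median log2 fold change of all genes was 0.52 in a limma fit of log2(TPM + 1) and 0.16 in the edgeR fit of counts. These fits differ in model as well as measure. Gsta3 was higher in TPM in every tumoroid (216, 225 and 194) than in any organoid library (120.0–190.2) without a fitted rise.

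Among the glucuronosyltransferases 10 of 12 fell (83.3%, against 12.1% of all genes) and none rose (against 21%; median -3.68). All 7 at 1 TPM in both tissues fell (12.2% of such genes did); the other 3, Ugt2b5, Ugt1a9 and Ugt2b38, reached it in organoids alone. Ugt2b5 (chr5:87124960-87140318), a broad-substrate enzyme, had 597, 684 and 458 TPM, 689, 764 and 636 TPM and 0.72, 0.82 and 0.07 TPM. In counts this was 7688, 8716 and 8404 in WT-cM-titled, 9403, 8501 and 8794 in T-cM-titled organoids and 9, 11 and 1 in tumoroids, a log2 fold change of -10.75 ± 0.52 that is given as a description. Ugt2a3 went from 116–196 TPM to 1.12, 4.39 and 0.52 TPM (-6.70 ± 0.57; -7.94 without tumoroid 2), and Ugt2b36 from 76.2–215 to 2.59, 2.76 and 1.55 (-6.25 ± 0.31). Their cluster neighbour Ugt2b34, the most abundant UGT of both tissues, fell less, from 1213–1824 TPM to 220.0, 274 and 315 TPM (-3.00 ± 0.20). Ugt1a1, which glucuronidates bilirubin, went from 179–231 TPM to 22.1, 64.2 and 19.3 TPM (-3.09 ± 0.38; -3.80 without tumoroid 2), and Ugt1a9, as a description, had 9.75–28.3 TPM in organoids and 0.2, 0.25 and 0.39 in tumoroids (-6.73 ± 0.61), both subject to the shared exons of the Ugt1a locus.

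Of 7 sulfotransferases 4 fell (57.1%, against 12.1% of all genes) and 1 rose (14.3%, against 21%; median -1.68). The 4 were among 5 at 1 TPM in both tissues. Sult6b2 had 276, 381 and 278 TPM, 319, 384 and 281 TPM and 1.51, 2.06 and 1.71 TPM, with tumoroids far under every organoid library (-8.03 ± 0.25, adjusted p = 1.88e-07). Sult1a1, the phenol sulfotransferase, reached 1 TPM in tumoroids alone, with at most 0.39 TPM in organoids and 1.97, 3.04 and 2.37 TPM in tumoroids (3.30 ± 0.58) on 13 counts over the organoid and 82 over the tumoroid libraries. Sult1c2 did not pass (21.3–111 TPM against 139, 22.6 and 74, -0.14 ± 0.64).

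Tumoroid 2 stood apart from the other tumoroids in many members. In 20 of the 106 (18.87%) it was at least 3 times above both other tumoroids in TPM, against 3.89% of all genes; tumoroid 1 did so in 1 member (1.5% of genes) and tumoroid 3 in 3 (5.04%). This count was made after the values were seen. The 20 were 17 CYP genes, among them Cyp2c29, Cyp2c55, Cyp2c66, Cyp2b10, Cyp1a1, Cyp3a13 and Cyp2w1, together with Ces1f, Ugt2a3 and Ugt2b1. Among the 20, Cyp3a16, Cyp3a41a and Cyp4a12a reached 1 TPM in tumoroids alone, so a high level there was partly fixed by that limit. Summed CYP levels were 2687 TPM in tumoroid 2 and 663.5 and 654.4 in tumoroids 1 and 3, whereas for GST the same library was the lowest (3777, 2886 and 4145 TPM). Nr1i3 was also highest in tumoroid 2 (4.2, 14.5 and 1.75 TPM), as was Nr1i2 (48.1, 73.4 and 21.6 TPM), and the 7 enterocyte markers summed to 529.5 TPM there against 231.4 and 91.5. Of the 5 hepatocyte markers Alb was highest there (35.1 TPM against 1.39 and 0) and Apoh too (1.04 against 0.09 and 0.23), whereas Ttr (11.6 against 58.1 and 57.8) and Cyp2e1 (1.8 against 5.98 and 21.5) were lowest, and their sum was lowest in tumoroid 2 (49.6 TPM against 65.5 and 79.5). Goblet markers summed to 338.2 TPM against 1548 and 1659 and Paneth markers to 670.1 against 5578 and 3819. Their part in the CYP levels was not tested.

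**Figure D3:**
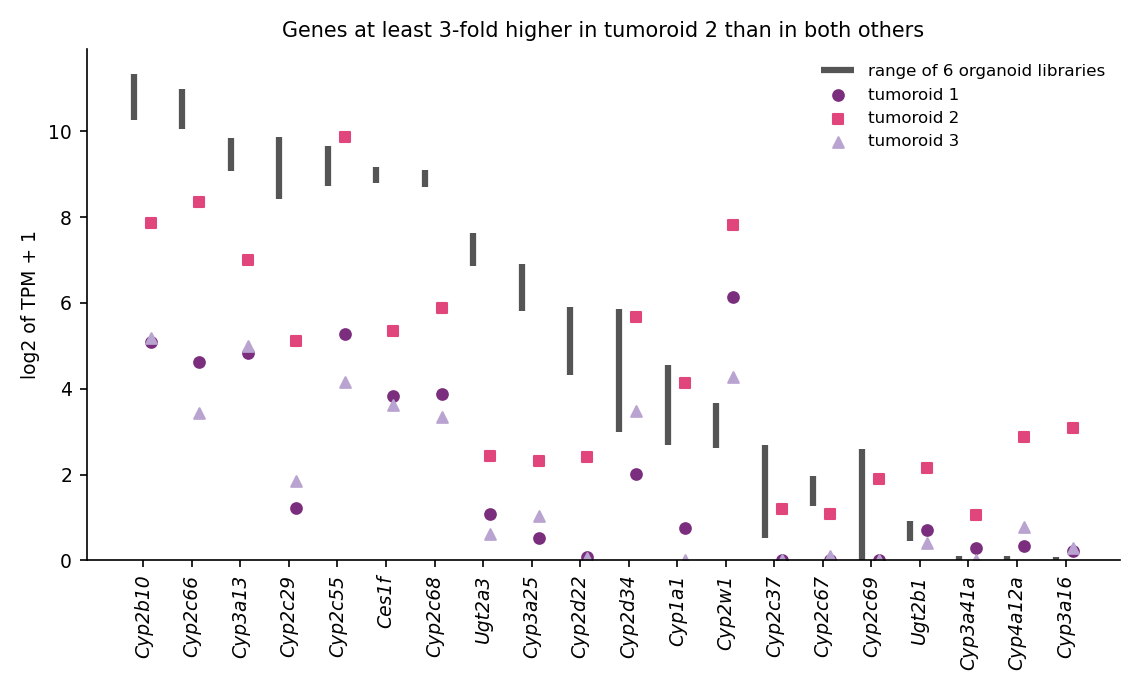
Level (log2 of TPM + 1) of the 20 members at least 3-fold higher in tumoroid 2 than in both other tumoroids, with a point for each tumoroid and a bar for the range of the 6 organoid libraries. In tumoroid 2, 10 of them lie below the organoid range, 4 within it and 6, among them Cyp2c55 and Cyp2w1, above it. Cyp3a16, Cyp3a41a and Cyp4a12a, also above it, reached 1 TPM in tumoroids alone, so their place was fixed by that limit.

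The organoid groups were compared to ask whether conditioned medium of tumour origin alters the enzymes of wildtype epithelium. Differences were small beside those in tumoroids: 4 members passed both limits (1.1% of all genes did), 3 of them up and 1 down in the T-cM-titled group (0.673% and 0.432% of genes). At an adjusted p under 0.05 without a limit on size, 20 members were higher and 19 lower (10.1% of all genes passed, 5.03% higher and 5.05% lower; edgeR's quasi-likelihood test with replicate number as a block, n = 3 pairs). The TPM of the groups did not overlap for 20 members, 8 higher and 12 lower (10.3% of all genes), and all 3 pairs agreed in direction for 65 members (45.4% of all genes). These calls lean on the pairing and on replicate 2: without the block (edgeR), without replicate 2 (edgeR), or on log2(TPM + 1) (limma), no member passed adjusted p, and of all 16208 genes 0, 1 and 0 did. At an unadjusted p under 0.05 these settings had 15, 33 and 32 members and 904, 1557 and 2690 genes. Hence no gene outside the families that is given below for the organoid groups, the markers and regulators included, passed without the block either. By family, those higher and lower were 8 and 7 CYP, 4 and 3 GST, 1 and 0 MGST, 3 and 1 UGT, 2 and 1 SULT, and 2 and 7 CES genes.

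The 4 members past both limits were scarce, at most 8.58 TPM in any organoid library. Cyp2c69 had 1, 0 and 0 counts in WT-cM-titled replicates 1, 2 and 3 and 8, 53 and 48 in T-cM-titled ones. Every T-cM-titled library was above its partner, with a depth-scaled ratio of 120.7 and an exact 95% counting interval of 21.21 to 4809 (fitted log2 fold change 6.50, adjusted p = 1.87e-07). That interval pools the reads of each group and leaves out the pairing and the spread between libraries. The fitted value was 8.79 without replicate 1, 5.68 (adjusted p = 0.213) without replicate 2 and 5.67 (adjusted p = 4.73e-05) without replicate 3. Of its transcript windows 35.4% occur in other genes, mainly Cyp2c40, Cyp2c67 and Cyp2c68. Cyp2c37, in the same cluster, had 2.21, 0.96 and 0.44 TPM and 2.31, 5.4 and 5.08 TPM, a gap carried by replicates 2 and 3 (1.87 ± 0.38, adjusted p = 0.00117; 2.93 without replicate 1 and 1.20, adjusted p = 0.103, without replicate 3). Ces2f had 0.32, 0.77 and 0.68 TPM and 1.16, 2.85 and 2.86 TPM without overlap (1.94 ± 0.24, adjusted p = 1.65e-06). Its neighbour Ces2b moved the other way, from 3.43, 6.08 and 8.58 TPM to 2, 2.5 and 2.68 TPM, also without overlap (-1.30 ± 0.18, adjusted p = 1.25e-05).

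Among members over 10 TPM the shifts stayed under 2-fold. Ugt2b36 came closest, at 89, 89.5 and 76.2 TPM in WT-cM-titled and 120.5, 182 and 215 TPM in T-cM-titled organoids (0.98 ± 0.11, adjusted p = 5.29e-07). Cyp3a25 went from 119.7, 105 and 118 TPM to 92.9, 55.3 and 59.1 TPM (-0.77 ± 0.10, adjusted p = 5.66e-06). Neither overlapped between groups, and in both the gap was widest in replicates 2 and 3. Cyp3a11, in the Cyp3a25 cluster, did not pass (-0.03 ± 0.07, adjusted p = 0.892).

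Within the CYP families, the members higher in T-cM-titled organoids were Cyp1a1, Cyp2b10 and 6 Cyp2c genes, and those lower were Cyp2c44, Cyp2c70, Cyp2e1, Cyp3a25 and 3 Cyp4f genes. Cyp1a1 had 9.06, 11.8 and 5.41 TPM against 9.92, 22.5 and 14 TPM, higher in each pair but overlapping between groups (0.81 ± 0.15, adjusted p = 0.000596). Cyp2b10 had 1891, 1856 and 1229 against 1997, 2606 and 1879 TPM (0.38 ± 0.08), Cyp2c29 699.9, 588 and 341 against 751, 931 and 575 TPM (0.50 ± 0.09), and Cyp2c66 1304, 1558 and 1057 against 1537, 2044 and 1601 TPM (0.40 ± 0.07). All 3 were higher in each pair, and for each the ranges of the groups overlapped.

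Of the 14 esterases 7 were lower and 2 higher by adjusted p (64.3%, against 10.1% of all genes, 5.05% lower and 5.03% higher). The family median was -0.39 (0 over all genes, and -0.02 over the CYP genes, a difference that was not tested). Ces2c had 1027, 1599.7 and 1450.0 TPM against 1010.2, 963 and 875 TPM, with replicate 1 near equal and replicates 2 and 3 lower (-0.51 ± 0.10, adjusted p = 0.000644). Ces2g went from 140.1, 128 and 118 to 117, 78.6 and 64.4 TPM without overlap (-0.62 ± 0.09), and Ces1b rose from 21.8, 14.6 and 14 to 26.4, 31.3 and 31 TPM (0.83 ± 0.13). Among the transferases, Gstm1 had 6904, 5723 and 4404 against 7362, 8449 and 6120.1 TPM (0.37 ± 0.07), and Sult1c2 21.3, 44.5 and 89.6 against 30.5, 73.2 and 111 TPM (0.49 ± 0.10). Gstp3 was lower in T-cM-titled organoids, with 36, 56.6 and 112 against 29, 33.9 and 54.2 TPM (-0.75 ± 0.13).

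Markers of several cell types moved with these differences. The enterocyte sum was 28613, 53324 and 63216 TPM in WT-cM-titled and 29924, 37427 and 42559 TPM in T-cM-titled replicates 1, 2 and 3. Without Fabp1 it was 13706, 22334 and 21998 against 15245.0, 20816 and 20192 TPM. Of the 7 markers Fabp1 and Fabp2 fell (-0.61 and -0.56), Alpi rose (0.75, adjusted p = 4.28e-08) and 4 did not pass. Also lower in T-cM-titled organoids were the crypt markers Ascl2 and Smoc2 (-0.66 and -0.61, 2 of 4), both enteroendocrine markers, Chga and Chgb (-0.48 and -0.30), the Paneth marker Mmp7 (-0.35, 1 of 3), the gastric marker Cldn18 (-1.30, 1 of 5) and, of the hepatocyte list, the member Cyp2e1 (-0.87, 1 of 5). Of the other lists no marker passed. The median absolute difference within a pair over the 106 members was 0.119, 0.241 and 0.323 (log2 of CPM + 1) for pairs 1, 2 and 3. The part of cell content in the enzyme differences was not tested.

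**Figure D4:**
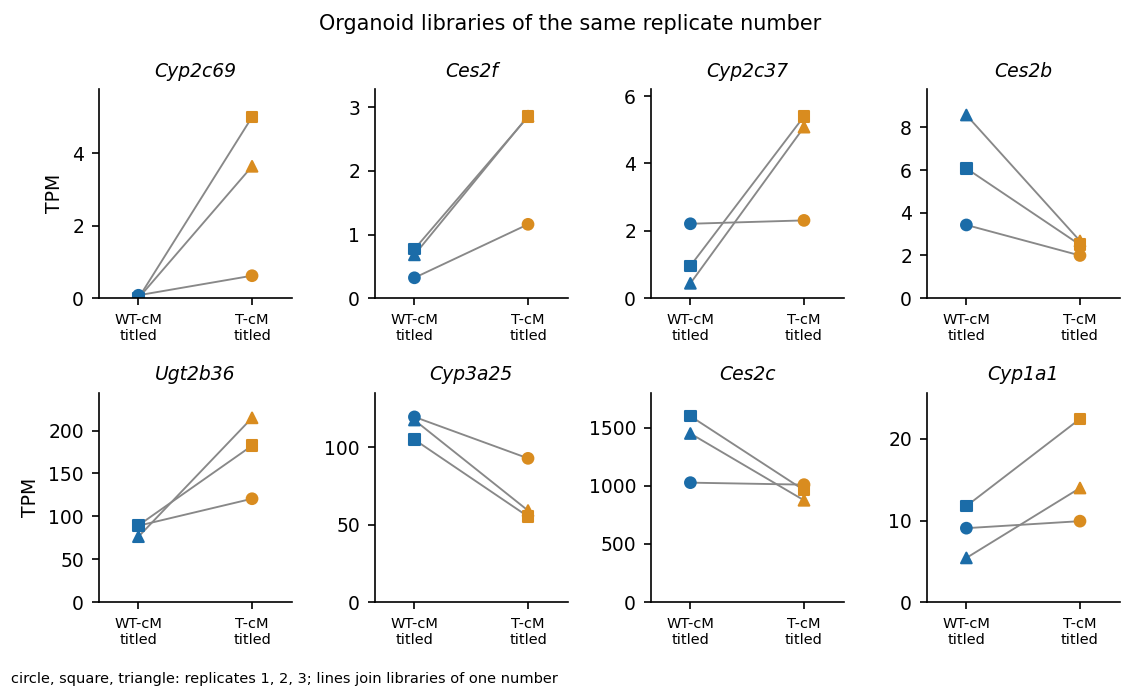
TPM (linear axes from 0) of the 4 members past both limits and of 4 further named members in the paired organoid libraries, with symbols for replicates 1 (circle), 2 (square) and 3 (triangle) and a line joining the WT-cM-titled and T-cM-titled library of the same replicate number. The lines of replicates 2 and 3 are steeper than that of replicate 1 for Ugt2b36, Cyp3a25 and Ces2c.

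Replicate numbers also set organoid libraries apart. In a test chosen after the values were seen, 62 of 106 members differed between replicate numbers within the organoid libraries (31.8% of all genes did). Cyp2d26, for example, had 497, 928 and 1146 TPM and 496, 1069.8 and 1213 TPM in the organoid groups, and Cyp4f14 787, 1407 and 1519.8 TPM and 718, 1021 and 1178 TPM. Gstm3 ran the other way, highest in replicate 1 of both groups (8343, 6306 and 4086 and 8163, 7636 and 4318 TPM). Cyp2d26 is shown as an example picked from its values. Crypt stem-cell markers, mostly Olfm4, summed to 344.3 and 221.3 TPM in replicate 1 of the organoid groups and to 42.3 to 62.6 TPM in the others, and the enterocyte sum was lowest in replicate 1. Replicate 3 of both groups was the one with Xist. The part of donor sex and cell content in these differences was not tested.

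The genes that supply and control these enzymes were read from 4 lists. Of 16 tested genes for electron transfer and cofactors, 14 fell in tumoroids (87.5%, against 12.1% of all genes) and none rose. Por, the P450 reductase, went from 260.0–319 TPM to 66.6, 69.3 and 92 TPM (-2.48 ± 0.18, adjusted p = 6.51e-06). Ugdh, which makes UDP-glucuronic acid, went from 331–573 to 30.3, 75.2 and 35.9 TPM (-3.85 ± 0.30), and Papss2, which makes the sulfate donor, from 634–852 to 14, 8.82 and 56.8 TPM (-5.29 ± 0.64). By adjusted p, 4 of the 16 rose and 1 fell in T-cM-titled organoids (31.2% passed, against 10.1% of all genes). Gclc, the catalytic subunit for glutathione synthesis, had 223, 166 and 135 TPM against 366, 471 and 382 TPM without overlap (1.23 ± 0.10, adjusted p = 7.57e-10), a larger log2 difference than that of any member over 10 TPM.

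Of 23 tested transcription regulators, 12 fell in tumoroids (52.2%, against 12.1% of all genes) and 2 rose (8.70%, against 21%). Nr1i3 went from 75.2–109.6 TPM to 4.2, 14.5 and 1.75 TPM (-4.30 ± 0.61), Nr1i2 from 91.2–109 to 48.1, 73.4 and 21.6 TPM (-1.61 ± 0.32), and Hnf4g, a nuclear receptor of enterocytes, from 416–677 to 32.9, 41.8 and 15.7 TPM (-4.65 ± 0.39). Hnf4a changed less (474–699 TPM against 366, 511 and 269, -1.16 ± 0.21), as did Nfe2l2, which drives antioxidant genes (-1.03 ± 0.16). Ahr rose, from 16.9, 17.4 and 8 and 18, 23.1 and 13 TPM in the organoid groups to 40.9, 65.2 and 189 TPM (2.10 ± 0.41, adjusted p = 0.00217), and its repressor Ahrr, at most 0.16 TPM in organoids, reached 0.64, 1.01 and 0.32 TPM (2.39 ± 0.47), having passed the 1 TPM limit through tumoroids alone. Between the organoid groups Ahr, Vdr and Nr3c1 were higher in T-cM-titled libraries (0.39, 0.37 and 0.37), with overlapping TPM in all 3, and none of the 23 was lower (13% of the list passed, against 10.1% of all genes).

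Of 5 tested Ah receptor targets outside the enzyme families 2 were called higher (against 21% of all genes) and 3 lower (against 12.1%) in tumoroids; both of the former, Ahrr and Aldh3a1, reached 1 TPM in tumoroids alone. The list shares Ahrr, Nfe2l2, Nqo1 and Aldh3a1 with the others. Nqo1, a quinone reductase also driven by Nfe2l2, went from 394–913 TPM to 34.2, 62.7 and 73.9 TPM (-4.05 ± 0.26), while Aldh3a1, an aldehyde dehydrogenase, had at most 0.95 TPM in organoids and 10.4, 4.21 and 71.3 TPM in tumoroids (6.20 ± 0.89). Between the organoid groups Nqo1 had 631, 501 and 394 against 854, 913 and 755 TPM without overlap (0.74 ± 0.08, adjusted p = 3.52e-07). Of 35 tested drug-metabolising enzymes of other families, 26 fell (74.3%, against 12.1% of all genes) and 2 rose in tumoroids. Adh1, the main alcohol dehydrogenase, went from 2322–4224 to 24.8, 8.33 and 8.04 TPM (-8.48 ± 0.67), and Adh6a, at 1 TPM in organoids alone, had 243–505 TPM there and 0.12, 0.38 and 0.82 TPM in tumoroids (-10.06 ± 0.48). Between the organoid groups 9 of the 35 were higher and 4 lower (37.1%, against 10.1% of all genes), led by Akr1b8, an aldo-keto reductase, at 346, 210.1 and 124 against 553, 426 and 277 TPM (0.94 ± 0.08, adjusted p = 5.94e-09).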

How the data were processed

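RNA-sequencing (polyA-selected, paired-end) was read from 9 deposited libraries. The authors aligned reads with STAR 2.5.3a to mm10 and assigned them to Gencode vM13 genes; the deposited raw counts are whole reads per gene, not normalised, and the deposited TPM are scaled by gene length and library. The counting tool, strand setting and gene lengths are not given in the sources used here; the counts also cover genes that are not protein-coding.

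Groups follow library titles. Counts of 16208 genes (TPM of at least 1 in any library) were fitted with edgeR 4.0.16 in R 4.3.3 (TMM, quasi-likelihood test in the form before edgeR 4, Benjamini-Hochberg); calls had an adjusted p below 0.05 together with a log2 fold change beyond 1 in either direction. The organoid comparison (6 libraries) had replicate number as a block, after the study's model; same-numbered organoid libraries deviated together (r = 0.546, 0.338 and 0.547). Tumoroid comparisons used 9 libraries without block, so same-numbered organoid libraries entered as independent. With these summed, 6281 genes passed adjusted p in place of 8165, and 76 of the 81 member calls were kept. Alternatives used limma 3.58.1, DESeq2 1.42.0 and Python 3.11.15. The fits were tested on simulated data. Gene positions and shared transcript windows come from Gencode vM21, and promoter windows from RefSeq. Counting intervals and p-values cover these libraries; where replicates share lines, the spread may be technical. Depth, 16541635 to 25170966 counts, limits scarce genes.

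Members, lists and naming rule were chosen with earlier results of these data known. Named members were the 12 highest in organoids and 6 in tumoroids, up to 12 called in each direction in tumoroids whose higher group averaged 50 counts or more, those called and 12 further by adjusted p between organoid groups, and 12 textbook genes; further names are marked as such.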

Additional observations from a re-analysis of the deposited data

How the results depend on the processing

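The calls between tumoroids and the mean of the organoid groups (81) stayed between 75 and 85 members under the 19 alternatives, and 82 with a replicate block, in which same-numbered tumoroids and organoids share only a number. Those between organoid groups did not hold. Of the 4 members called there and the 39 past adjusted p, none passed without the replicate block (15 members at an unadjusted p under 0.05) or with log2(TPM + 1) in limma (32 members), and neither did any of the 16208 genes (904 and 2690 at an unadjusted p under 0.05). Leaving out 1 replicate gave 0 to 9 calls and 0 to 51 members past adjusted p, lowest without replicate 2 and highest without replicate 1. Without a fold limit 39 were called; limma voom gave 3 calls and 14 past adjusted p, DESeq2 3 and 29, and over all genes adjusted-p calls went from 1634 to 581 and 783. The members differing between replicates (62) came to 0 with log2(TPM + 1) and to 30 to 49 with 1 replicate left out. The cause was not tested. On CPM the log2 ratio of tumoroid to organoid sums was lower for each family, -3.61 for CYP, -3.02 for GST, -3.13 for MGST, -3.33 for UGT, -3.35 for SULT and -3.41 for CES. In tumoroid 2, 15 members in place of 20 were set apart 3-fold on CPM, and 12 met a 5-fold limit on TPM. Some tumoroid values that did not pass the test changed sign. Leaving out 1 library, Ces2f ranged from -0.31 to 0.52, Ces2g from -0.30 to 0.18 (0.03 without T-cM-titled replicate 1), Cyp2c69 from -5.21 to 1.94 and Sult1c2 from -0.93 to 0.29, with 0.22 without WT-cM-titled replicate 3 and 0.11 without T-cM-titled replicate 3; all 4 turned without tumoroid 2. On TPM, Ces2g came to 0.37, Cyp2c69 to -0.30 and Sult1c2 to 0.22; Cyp2c69 came to -1.60 with voom and -1.27 with organoid libraries of a number summed. The scarce transcripts among these are limited by depth.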
